A study of Mus musculus with 8 samples.

Results

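The 38 genes described here are mouse genes that type I interferon induces, taken as a list by symbol. A member was read from the probe set that carries its symbol and no other, and where a gene had several, from the one with the highest mean over all arrays. By this rule 34 of the 38 were found, among 22180 genes with such a probe set. Ifi44, Oas1a, Dtx3l and Ifi27l2a had no probe set of their own and are not analysed here. Of the 34, 30 reached the intensity filter, a mean log2 intensity of 3.76 over all 8 arrays, and were tested. Ifit2, Ifitm1, Ifitm6 and Mx2 lay below it and are given by their values.

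RNA was measured in 2 groups of dendritic cells grown from the bone marrow of wild-type female C57BL/6 mice with GM-CSF (granulocyte-macrophage colony-stimulating factor, 20 ng/ml). The SCF group received stem cell factor, which binds the receptor Kit, at 100 ng/ml for the last 6 hours, and the medium group did not. Both groups had first spent 7 days at 21% oxygen, been selected on CD11c beads, and been held for 2 days at 2% oxygen with GM-CSF, so that all arrays come from hypoxic cells and none from cells given interferon. The whole was run in 4 experiments, named BC, D2, E and I, each a separate preparation of cells split between SCF and medium, which gave 4 SCF and 4 medium arrays. The median of an array ran from 13.3 to 13.9 in linear intensity, and the number of arrays limits the precision. All 11 conventional dendritic cell markers found, Itgax (CD11c) among them, lay above the filter. So did all 9 macrophage and monocyte markers found and 8 of 11 plasmacytoid dendritic cell markers, so the filter does not set these cell types apart.

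Type I interferons are secreted proteins that bind the receptor made of Ifnar1 and Ifnar2. The receptor activates the kinases Jak1 and Tyk2, and these phosphorylate Stat2, which joins Irf9 in the complex ISGF3. ISGF3 binds the interferon-stimulated response element, found at many of the genes described here. Their products sense viral nucleic acid, degrade or withhold RNA, modify proteins with ISG15, or block viral entry and budding. Dendritic cells also express them at a low level without infection, through a small constant supply of interferon.

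A sequence found at part of this family is shown at 4 members whose levels are given below, chosen among those that hold it. In the RefSeq promoter table (build GRCm38.p6), 27 of the 38 members had at least 1 window, running from 250 bases before the start site to 50 after it. The core of the response element was searched as the letters GAAA followed, after any 2 bases, by GAAA again, on both strands. It occurred in 13 of these 27 genes (48.1%), against 3.99% of all 27025 genes of the table. By window it was 14 of 32 (43.8%) among members, against 3.44% of all 32851. The STAT site TTCNNNGAA, also on both strands, occurred in 29.6% of the member genes, against 9.55% of all genes, and neither motif contains the other. The windows printed are those of Isg15 at chr4:156200769-156201068 (minus strand), Ifit1 at chr19:34640639-34640938 (plus strand), Rsad2 at chr12:26456403-26456702 (minus strand) and Ddx58 at chr4:40239776-40240075 (minus strand). Each reads 5′ to 3′ along the gene, and capitals mark the matches to this core or its reverse complement:
Isg15: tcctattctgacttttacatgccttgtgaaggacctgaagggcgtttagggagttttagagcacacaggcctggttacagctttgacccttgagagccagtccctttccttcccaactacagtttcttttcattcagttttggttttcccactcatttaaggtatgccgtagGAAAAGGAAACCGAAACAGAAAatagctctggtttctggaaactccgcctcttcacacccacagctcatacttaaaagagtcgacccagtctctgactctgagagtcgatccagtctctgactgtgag
Ifit1: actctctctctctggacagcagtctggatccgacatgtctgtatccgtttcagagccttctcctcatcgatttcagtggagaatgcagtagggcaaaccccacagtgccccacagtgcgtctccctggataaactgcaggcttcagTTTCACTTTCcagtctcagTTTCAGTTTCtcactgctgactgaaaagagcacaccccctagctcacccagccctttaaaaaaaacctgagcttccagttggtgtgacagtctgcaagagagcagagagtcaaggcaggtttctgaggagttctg
Rsad2: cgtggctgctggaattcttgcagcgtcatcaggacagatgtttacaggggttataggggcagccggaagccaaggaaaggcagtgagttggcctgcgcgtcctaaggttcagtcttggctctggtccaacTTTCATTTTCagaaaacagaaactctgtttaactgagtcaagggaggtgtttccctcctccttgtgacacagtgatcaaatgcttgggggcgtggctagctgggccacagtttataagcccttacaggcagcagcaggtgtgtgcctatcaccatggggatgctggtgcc
Ddx58: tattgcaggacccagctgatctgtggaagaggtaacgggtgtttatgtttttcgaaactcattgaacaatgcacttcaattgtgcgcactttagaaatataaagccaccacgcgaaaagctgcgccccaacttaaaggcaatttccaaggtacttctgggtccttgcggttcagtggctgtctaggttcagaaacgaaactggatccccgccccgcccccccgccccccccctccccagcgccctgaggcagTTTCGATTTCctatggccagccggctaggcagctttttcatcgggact
The Isg15 window held 3 overlapping matches, the first of which begins 78 bases before the start site. Ifit1 held 2, beginning 104 and 85 bases before it, and Rsad2 held 1, beginning 120 bases before it. The single match of Ddx58 lies just past its start site. A match describes these letters and does not show that a factor binds there.

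The first comparison asked whether contact with SCF altered these genes. None of the 30 tested members passed an adjusted p of 0.05 in either direction, and the smallest adjusted p among them was 0.990 (limma with experiment as a block, Benjamini-Hochberg over all probe sets tested). The background was the same, with 0 of 13660 probe sets called (0%). At an unadjusted p under 0.05 there was 1 member, Mx1, among 521 probe sets (3.81%). The median log2 fold change of the members was −0.018, with 11 above 0 and 19 below, where 49.2% of all probe sets were below and their median was 0.0012. Changes of single members lay between −0.13 and 0.15. The 95% interval of the change stayed within 1.5-fold in both directions for 30 of 30 members, as it did for 99.7% of all probe sets. The widest belonged to Ifit1 and ran from −0.32 to 0.24 log2 units, and effects of SCF within these intervals were not detectable with 4 pairs.

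**Figure D1:**
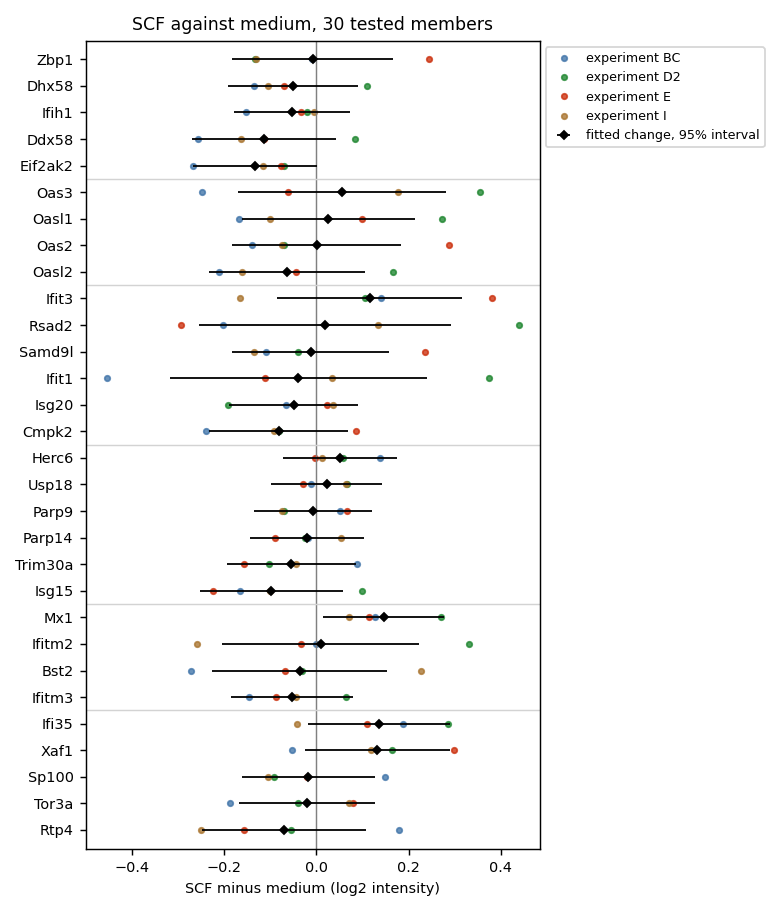
SCF minus medium in log2 intensity for the 30 tested members, grouped by role. Coloured points are the 4 experiments and black diamonds the fitted change with its 95% interval, and every fitted change lies between −0.13 and 0.15.

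Among the nucleic acid sensors, all 5 tested members had fitted changes below 0, with a median of −0.053, and 0 passed. Ddx58 encodes RIG-I, a sensor of viral RNA in the cytosol. Its log2 intensity was 5.82, 6.28, 6.80 and 6.09 (BC, D2, E, I) with SCF, against 6.07, 6.20, 6.91 and 6.25 in the medium arrays of the same experiments. The 2 groups overlapped, and SCF was below medium in 3 of 4 experiments. The log2 fold change was −0.11 (SE 0.07, limma adjusted p = 0.990), or −0.065 when BC was left out and −0.18 when D2 was. Eif2ak2 encodes PKR, the kinase that halts translation when it binds double-stranded RNA. It measured 6.68, 6.97, 7.20 and 6.80 (BC, D2, E, I) with SCF, against 6.95, 7.04, 7.28 and 6.91 in medium. All 4 pairs were lower with SCF although the groups overlapped, and the log2 fold change was −0.13 (95% confidence bounds −0.27 and 0.00056, SE 0.06, limma adjusted p = 0.990), or −0.088 without BC. Ifih1, the RNA sensor MDA5, was the other member below medium in 4 of 4 pairs, with a fitted change of −0.053. These 2 members are 6.67% of those tested, against 6.05% of all probe sets.

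Mx1 and Ifi35 had the largest fitted increases. Mx1 encodes a GTPase that blocks influenza virus in mice with an intact allele, which C57BL/6 mice lack. It measured 6.95, 6.95, 6.98 and 6.97 (BC, D2, E, I) with SCF, against 6.82, 6.68, 6.86 and 6.90 in medium. The SCF arrays lay close together and all above the medium arrays, an order whose share over all probe sets was not computed. Mx1 was the 1 member higher in 4 of 4 pairs (3.33% of members, against 6.15% of all probe sets). The fitted change was 0.15 log2 units (95% confidence bounds 0.014 and 0.28, SE 0.06), did not pass (limma adjusted p = 0.990) and was 0.10 without D2. Ifi35, which encodes a leucine zipper protein that pairs with Nmi, measured 8.54, 8.39, 8.41 and 8.42 (BC, D2, E, I) with SCF, against 8.35, 8.10, 8.30 and 8.46 in medium. It was higher with SCF in 3 of 4 pairs, at a log2 fold change of 0.14 (SE 0.07, limma adjusted p = 0.990), or 0.085 without D2.

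Xaf1 and Isg15 completed the members with the smallest unadjusted p for SCF, and they pointed in opposite directions. Xaf1, which encodes a protein that favours apoptosis, measured 6.17, 6.28, 7.14 and 6.42 (BC, D2, E, I) with SCF, against 6.23, 6.12, 6.84 and 6.30 in medium. Its log2 fold change of 0.13 (SE 0.07, limma adjusted p = 0.990) was 0.076 without E. Isg15 encodes a ubiquitin-like protein that is attached to other proteins. It measured 4.59, 4.88, 4.98 and 4.78 (BC, D2, E, I) with SCF, against 4.76, 4.78, 5.20 and 4.88 in medium. The groups overlapped, and the log2 fold change of −0.10 (SE 0.07, limma adjusted p = 0.990) was −0.16 without D2 and −0.055 without E.

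The 4 experiments did not move together under SCF. The median SCF minus medium difference of the 30 members was −0.12, 0.061, −0.031 and −0.060 (BC, D2, E, I). The median over all probe sets stayed between −0.0013 and 0.0056. In BC 22 of 30 members were lower with SCF and 8 higher, where 49.6% of all probe sets were higher. The fitted median was 0.0028 without BC, with 15 members on each side of 0. In that same pair the 9 tested macrophage and monocyte markers had a median difference of −0.31, with 8 of 9 below 0, and their part in the members' values was not tested. Ifit1 shows the disagreement best, with SCF minus medium at −0.45, 0.38, −0.11 and 0.034 (BC, D2, E, I). The SD of the 4 differences had a median of 0.14 over the members, against 0.12 over all probe sets.

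The second comparison asked how far the members differed between the 4 preparations of cells, whatever the treatment. The range of the experiment means, each the mean of the SCF and the medium array, had a median of 0.54 log2 units over the 30 members, against 0.20 over all probe sets. It was larger than the size of the fitted SCF change in 29 of 30 members, the exception being Mx1. A range of 4 means cannot fall below 0, and the share over all probe sets was not computed. The count of 29 therefore has no background to be set against. In a limma F-test across experiments 12 members passed an adjusted p of 0.05 (40%), against 326 of 13660 probe sets (2.39%). Without experiment E, 0 members passed, where 53 of 13660 probe sets did. Without another experiment 9 or 10 members passed, where 85 to 121 of 13660 probe sets did, so calls over all probe sets were also fewest without E. At an unadjusted p under 0.05 the count without E was 5 of 30 (16.7%), near the 18.9% of all probe sets. The median range over BC, D2 and I alone was 0.20 in the members, against 0.17 over all probe sets. The 2 arrays of an experiment share 1 preparation, so these p-values set preparations against the spread between 2 arrays of the same cells. Mice, culture, RNA and array handling of an experiment cannot be told apart.

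**Figure D2:**
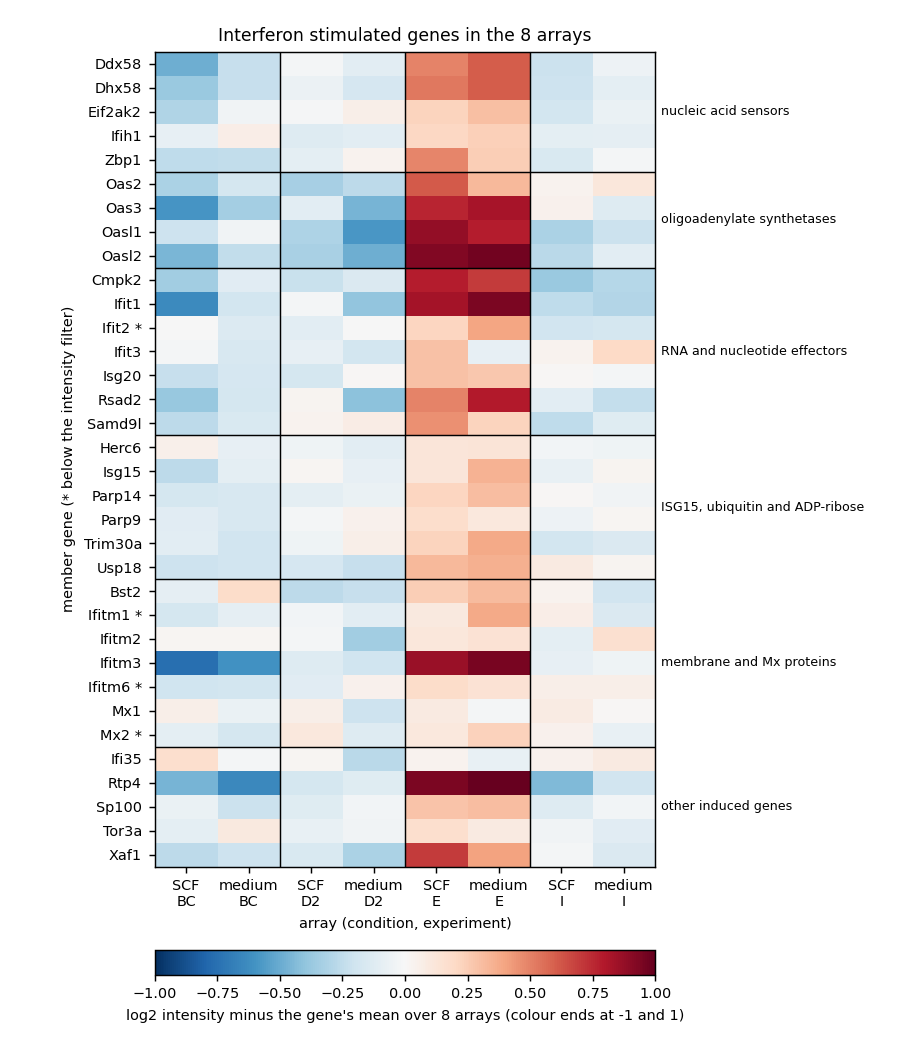
Log2 intensity of the 34 members found in the 8 arrays, each gene centred on its own mean, with experiments side by side and roles as blocks. Both arrays of E are above the other 6 in 29 of the 34 members.

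Experiment E carried the difference. Set against the mean of BC, D2 and I, 13 of the 30 members (43.3%) were higher in E at an adjusted p of 0.05 and 0 were lower, while 0.673% of all 13660 probe sets were higher and 0.146% lower (limma, Benjamini-Hochberg within the contrast). The median member was 0.43 log2 units higher in E, and 29 of 30 lay above 0, against a median of 0.0061 and 52.5% above 0 over all probe sets. Both E arrays exceeded the other 6 in 25 of 30 tested members, against 7.06% of all probe sets, and in the 4 members below the filter. E was the highest of the 4 SCF arrays in 29 of 30 members and of the 4 medium arrays in 25 of 30, where 27.8% and 22% of all probe sets had this order. The count of 13 was 10 without BC, 12 without D2 and 12 without I, where 0.337%, 1.07% and 0.432% of all probe sets were higher. It was 20 with a variance trend, where 1.95% of all probe sets were higher, and 20 with array weights, where 1.17% were.

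Macrophage and monocyte markers were also higher in E. Of the 9 tested, 9 lay above 0 with a median of 0.59 log2 units, and 4 passed the same test, namely Fcgr1, C1qb, Ccr2 and Cd14. Their summed intensity was 2040 to 2091 in the E arrays, against 1380 to 1678 in the other 6, and their part in the members' difference was not tested. Conventional dendritic cell markers summed to 8156 to 8167 in E, within the 7870 to 8233 of the other arrays. None of the 11 passed in E, and 3 lay above 0, with a median of −0.061 log2 units and folds that included 0.805 for Dpp4 and 1.23 for Itgax. Of the markers of plasmacytoid dendritic cells, a cell type known for making much type I interferon, 1 of 8 passed (Cox6a2), and the list's sum of 626.9 to 627.9 in E fell within 580.2 to 685.9 elsewhere. Such sums weigh a list's brightest genes most, here Tlr9 and Tcf4, at log2 intensities of 7.99 and 7.14 in the SCF array of E. Siglech, a defining marker of those cells, was below the filter, at 3.43 and 3.39 in E and between 3.33 and 3.60 elsewhere. On arrays of pooled cells, more cells of a type and more RNA per cell cannot be told apart.

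**Figure D3:**
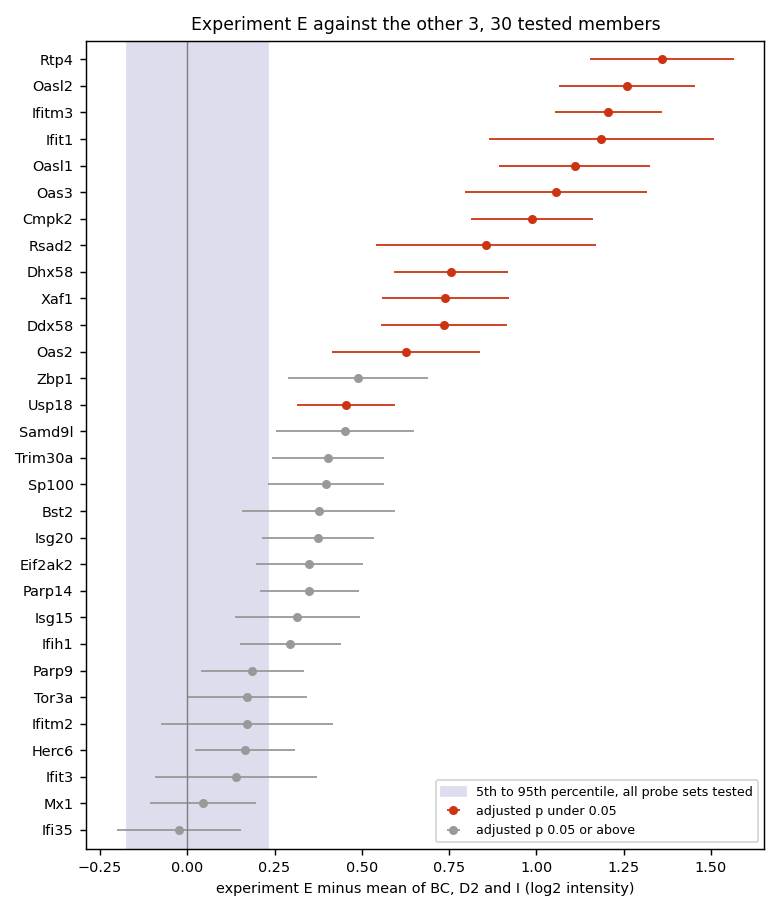
Experiment E minus the mean of the other 3 experiments, with 95% intervals, for the 30 tested members. Red points are the 13 that passed an adjusted p of 0.05, and the shaded band spans the 5th to 95th percentile of all probe sets.

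All 4 tested oligoadenylate synthetase genes were higher in E. These enzymes make the short oligoadenylates that switch on RNase L, although Oasl1 lacks that activity. Oasl2 measured 7.63 with SCF and 7.67 in medium in experiment E, against 6.25 to 6.44 with SCF and 6.22 to 6.60 in medium in the other experiments. The E arrays stood apart from the other 6 in both conditions, a 2.39-fold difference (log2 1.26, SE 0.08, limma adjusted p = 0.00193). Oasl1 measured 6.50 with SCF and 6.40 in medium in E, against 5.30 to 5.41 and 5.04 to 5.58 elsewhere, or 2.16-fold (log2 1.11, SE 0.09, adjusted p = 0.00487). Oas3 measured 7.39 and 7.45 in E, against 6.04 to 6.67 and 6.17 to 6.50 elsewhere, or 2.08-fold (log2 1.06, SE 0.11, adjusted p = 0.0105). Oas2 was 1.54-fold higher in E (adjusted p = 0.0323). The fitted SCF changes of this family, none of which passed, lay between −0.063 and 0.056.

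The RNA and nucleotide effectors divided. Of 6 tested, Ifit1, Rsad2 and Cmpk2 were higher in E and 3 did not pass. Ifit1 encodes a protein that holds RNA lacking the host's cap methylation. With SCF it measured 4.69, 5.31, 6.16 and 5.07 (BC, D2, E, I), against 5.15, 4.93, 6.27 and 5.04 in medium. Only the arrays of E exceeded 6, and the difference of E from the other experiments was 2.27-fold (log2 1.19, SE 0.14, limma adjusted p = 0.0148). Rsad2 encodes viperin, which makes a chain-terminating nucleotide, and Cmpk2, its neighbour on chromosome 12, a nucleotide kinase. Rsad2 measured 5.40, 5.81, 6.28 and 5.68 (BC, D2, E, I) with SCF, against 5.61, 5.38, 6.57 and 5.54 in medium. It was 1.81-fold higher in E (log2 0.86, SE 0.14, limma adjusted p = 0.0414), a call lost without BC (adjusted p = 0.111), without I (0.0912) and when dim probe sets were kept in (0.0524). Its 11 alternatives spanned an adjusted p of 0.00682 to 0.111. Cmpk2 was 1.98-fold higher in E (adjusted p = 0.00358). Ifit3, of the same family as Ifit1, behaved differently, at 6.25 with SCF and 5.87 in medium in E, against 5.88 to 6.00 and 5.77 to 6.16 elsewhere. Its arrays overlapped between experiments and the difference was 1.10-fold (adjusted p = 0.665). Whether the near-identical gene Ifit3b shares its signal was not tested. Isg20, an RNA exonuclease, and Samd9l, an inhibitor of translation, were 1.30-fold and 1.37-fold higher in E without passing. Ifit2, below the filter, measured 3.69 with SCF and 3.86 in medium in E, against 3.28 to 3.47 and 3.29 to 3.46 elsewhere.

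Among the sensors, Ddx58 and Dhx58 were higher in E. Ddx58, whose arrays are given above, differed by 1.67-fold (log2 0.74, SE 0.08, limma adjusted p = 0.0105), with both E arrays above the other 6. Dhx58 encodes LGP2, a partner of RIG-I and MDA5 without signalling domains of its own, and differed by 1.69-fold (adjusted p = 0.00576). Zbp1, the sensor of nucleic acid in the Z conformation, was 1.40-fold higher in E, Eif2ak2 1.27-fold and Ifih1 1.23-fold, and these 3 did not pass (adjusted p of 0.0604, 0.0672 and 0.0924). Eif2ak2 did pass with a stricter filter at a log2 intensity of 5, a variance trend, array weights or the mean of a gene's probe sets, and its 11 alternatives spanned an adjusted p of 0.0210 to 0.185.

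In the group of ISG15, ubiquitin and ADP-ribose genes, 1 of 6 tested members passed. Usp18 encodes the protease that removes ISG15 from proteins and damps the interferon receptor. It measured 8.78, 8.82, 9.31 and 9.07 (BC, D2, E, I) with SCF, against 8.79, 8.75, 9.34 and 9.01 in medium. The 2 arrays of an experiment nearly coincided, and E was 1.37-fold above the others (log2 0.45, SE 0.06, limma adjusted p = 0.0224), a call lost without BC (adjusted p = 0.0989, within a range of 0.000571 to 0.0989 over 11 alternatives). Isg15 itself was 1.24-fold higher (adjusted p = 0.132), with both E arrays above the other 6. The remaining members were between 1.12-fold and 1.32-fold higher without passing. These were Herc6, the ligase that attaches ISG15 in mice, Parp9 and Parp14, both of the ADP-ribosyltransferase family, and the ubiquitin ligase gene Trim30a.

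The membrane group held both extremes. Ifitm3 encodes a membrane protein that stops viruses from fusing with endosomes. It measured 7.75, 8.37, 9.36 and 8.42 (BC, D2, E, I) with SCF, against 7.90, 8.31, 9.45 and 8.46 in medium. Its order was E, then I and D2 together, then BC, in both conditions, and its range of 1.58 log2 units was the widest of the members. E was 2.31-fold above the other experiments (log2 1.21, SE 0.07, limma adjusted p = 0.00135). Ifitm2, a close relative, was 1.13-fold higher and Bst2, which tethers budding virus at the cell surface, 1.30-fold, neither passing. Mx1 differed by 1.03-fold (adjusted p = 0.859) and had the narrowest range, 0.12 log2 units. Below the filter, Ifitm1 measured 3.72 with SCF and 4.00 in medium in E, against 3.45 to 3.69 and 3.48 to 3.53 elsewhere. Mx2 and Ifitm6 also had both E arrays above the other 6.

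Among the other induced genes, Rtp4 and Xaf1 were higher in E. Rtp4, which encodes a chaperone of cell surface receptors, measured 5.02, 5.31, 6.42 and 5.04 (BC, D2, E, I) with SCF, against 4.84, 5.36, 6.58 and 5.29 in medium. It was 2.56-fold above the other experiments in E, the largest such difference of the members (log2 1.36, SE 0.09, limma adjusted p = 0.00193). Xaf1 was 1.67-fold higher (adjusted p = 0.0105). Sp100, a nuclear body protein gene, was 1.32-fold higher and Tor3a, of the torsin family, 1.13-fold, neither passing. Ifi35 stood at 0.984-fold (adjusted p = 0.943). Of the 4 probe sets of Sp100, the brightest and the second brightest differed in E by 0.40 and 0.26 log2 units and the dim 2 by 0.031 and 0.052.

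**Figure D4:**
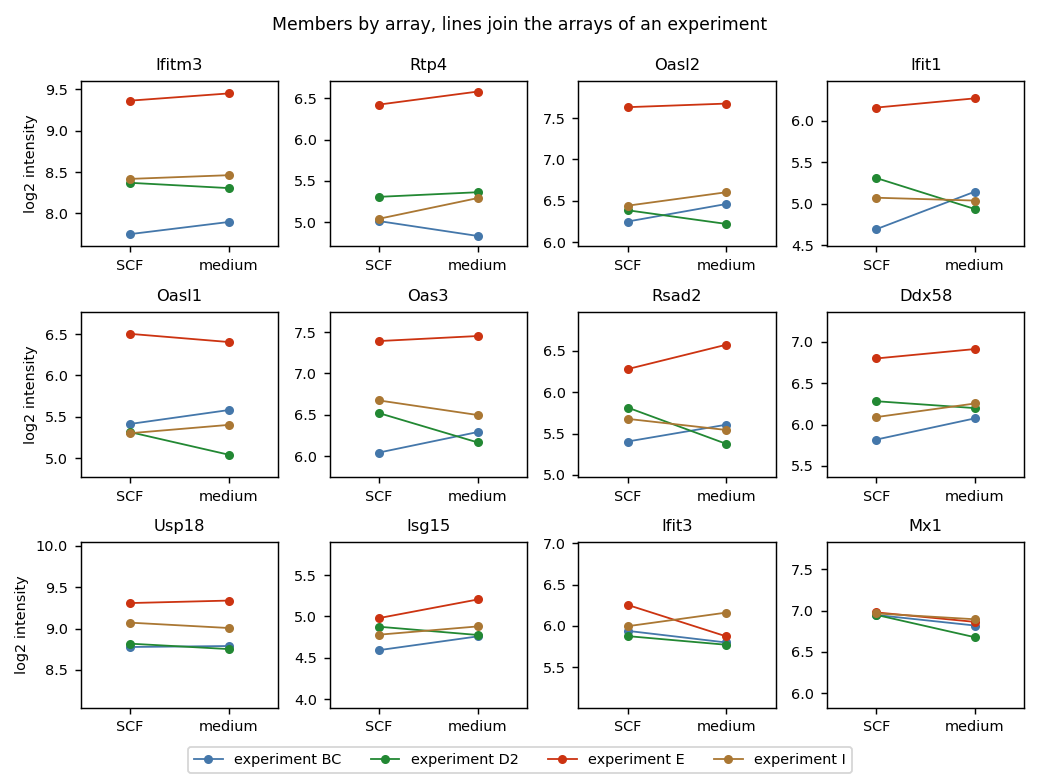
Log2 intensity of 12 members with SCF (left) and in medium (right), with lines joining the 2 arrays of an experiment and every panel spanning the same height. Experiment E (red) lies above the others for Ifitm3, Rtp4, Oasl2, Ifit1, Oasl1 and Oas3 and not for Mx1.

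The other end was less marked. Set against the mean of the other 3, BC had 6 of 30 members lower (20%, against 0.747% of all probe sets) and 0 higher (0.864% of all). D2 had 0 members in either direction (0% of all probe sets), and so had I, where 0.0512% of all probe sets were higher and 0.249% lower. The 6 were Ddx58, Dhx58, Oas3, Oasl2, Ifitm3 and Rtp4, all of which were also higher in E. The BC and E contrasts share arrays, and without E the number for BC was 0. Both BC arrays lay below the other 6 in 8 of 30 members, against 4.25% of all probe sets. In BC 8 of 9 macrophage and monocyte markers lay below 0 and 2 passed, and their part in this was not tested.

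The 15 probe sets with a difference of over 1 log2 unit in E included 6 members, and the 20 largest increases included 7, with Rtp4 in place 3 and Oasl2 in place 5. The core of the response element was found both among members that passed in E and among those that did not. It was present in 5 of 9 passing genes with a window and in 7 of 12 that were tested and did not pass. Passing genes with the core differed by 0.74 to 1.21 log2 units and those without by 0.74 to 1.26.

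A further list held genes of the interferon pathway. Many of them make, receive or transmit the signal, but the list also held genes such as Pml, Adar, Ube2l6 and Nmi, and Ifngr1 and Ifngr2. Of 38 listed pathway genes 33 were found and 30 tested, 0 of which passed for SCF, with 20 above 0 and 10 below. In E 3 of 30 were higher, against 0.673% of all probe sets, and 0 were lower, against 0.146%. Their median difference in E was 0.075 log2 units, against 0.0061 over all probe sets. The 3 that passed were Irf7, Pml and the RNA receptor gene Tlr3. Irf7, the transcription factor that interferon itself induces, measured 6.50 with SCF and 6.33 in medium in E, against 4.70 to 5.20 and 5.11 to 5.15 elsewhere, or 2.53-fold (log2 1.34, SE 0.12, limma adjusted p = 0.00493). The receptor genes did not pass, with Ifnar1 at 1.05-fold (adjusted p = 0.750) and Ifnar2 at 1.08-fold (0.517). Neither did Stat2 at 1.13-fold (0.283) or Irf9 at 1.06-fold (0.699). Ifnb1, the gene of interferon beta, lay below the filter at 3.06 and 3.13 in E, against 3.03 to 3.22 in the other 6 arrays.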

How the data were processed

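RNA from 8 cultures was labelled with biotin and hybridised to 1-colour arrays, 1 array each. Per the submitters' processing notes the authors ran RMA, of which the sources used here give no version, and deposited 1 intensity for each probe set on each array. These intensities were linear, and they were converted to log2 here without a pseudocount or another normalization. Of the 41345 probe sets, 23521 had 1 gene symbol in the platform annotation, 1814 several and 16010 were unnamed here. Single-symbol probe sets were tested where their mean log2 intensity reached 3.76, the median over all probe sets, which left 13660. No detection call was given, so signal over background is unknown.

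Groups and experiments came from the sample titles. The series' design text states that each experiment's cells were made together and then split. After removal of group means, paired arrays correlated at 0.328 (I) to 0.423 (BC). One linear model per probe set held experiment and SCF (lmFit and eBayes of limma 3.58.1, R 4.3.3, two-sided), leaving 3 residual degrees of freedom (7.51 once the prior is added). From it came the SCF change, an F-test over experiments, and each experiment against the mean of the other 3, each with Benjamini-Hochberg adjustment and a threshold of 0.05. The fit was tested on simulated data.

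Members and lists were chosen with earlier results of these data known. Per-array values are given for 6 fixed members (Isg15, Mx1, Ifit1, Rsad2, Usp18, Ddx58), the 6 with the smallest p for SCF and the 6 with the widest range of experiment means. Other genes are named after their values were seen. Alternatives covered the filter, scaling, variance model, array weights, probe set choice, block and leaving out each experiment. Promoter windows are RefSeq's (GRCm38.p6), and probe sets were not placed on a genome.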

Additional observations from a re-analysis of the deposited data

Results flagged for a closer look

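Within a group of 4 arrays, a value was marked where its gap to the nearest other array was too large a share of the group's range by Dixon's criterion at 95%. Of 68 groups examined, 8 were marked, where chance marks about 1 in 20, or 3.4, and all 8 were the E array at the high end. The groups are not independent, since they come from the same 8 arrays and both arrays of E share 1 preparation. The count of 8 is therefore no measure of an excess over chance. With SCF these were Ifih1 at a log2 intensity of 7.94 (next array 7.65), Oasl1 at 6.50 (5.41), Oasl2 at 7.63 (6.44), Cmpk2 at 6.13 (5.12) and Sp100 at 8.72 (8.36). In medium they were Dhx58 at 7.21 (next array 6.51), Ifit1 at 6.27 (5.15) and Ifitm1 at 4.00 (3.53).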

How the results depend on the processing

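The count of 0 members and 0 probe sets called for SCF held under all 14 alternatives, among them the fit with no replicate block (0 called). At an unadjusted p under 0.05 between 0 and 3 members were found. There were 0 without E, where 581 of 13660 probe sets were found. There were 3 without I, where 701 of 13660 were, and 3 with a variance trend, where 660 of 13660 were. The members' median SCF change lay between −0.038 and −0.018 over the settings with all 4 experiments, and between −0.038 and 0.0028 with 1 left out. With array medians equalized the median of all probe sets was −0.018. Members higher in E numbered 12 to 20 over the settings with all experiments, where 0.327% to 2.53% of all probe sets were higher. They numbered 10 to 12 with BC, D2 or I left out, where 0.337% to 1.07% were. The count was 20 with a variance trend (1.95% of all probe sets) and 20 with array weights (1.17%). All 13 were also called with repeated quantile normalization, array medians equalized, a variance trend, array weights and the mean of a gene's probe sets. The stricter filter, at a log2 intensity of 5, kept 25 members and called 18, where 2.53% of all probe sets were called higher in E. The number with both E arrays above the other 6, examined after the data were seen, was 25 under each rescaling and 25 to 26 with BC, D2 or I left out.

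The F-test across experiments called 21 members with a variance trend, and 0 to 10 with 1 experiment left out, 0 being without E. Over all probe sets it called 206 of 23521 with no filter, 986 of 8666 with the stricter filter and 1295 of 13660 with a variance trend. With the mean of a gene's probe sets it called 492 of 11090, and with 1 experiment left out 53 to 121 of 13660. Members called in BC numbered 3 with no filter, 10 with a variance trend and 0 to 7 with 1 experiment left out. In D2 they numbered 4 with the stricter filter and 4 with a variance trend, and in I 2 with the stricter filter, 2 with a variance trend, 1 with the mean of probe sets, and 0 to 3 with 1 experiment left out. Shares of all probe sets in BC, D2 and I under these settings are not given here. These member counts therefore have no background to be set against.

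Some SCF changes near 0 turned sign. With 1 experiment left out, Ifit1 ranged from −0.18 to 0.099, Rsad2 from −0.12 to 0.12, Oasl1 from −0.057 to 0.090 and Oas3 from −0.044 to 0.16, the negative ends being those without D2 and the positive end of Ifit1 that without BC. Rsad2 was −0.00028 with array medians equalized and −0.021 with array weights. The difference of Ifi35 in E was 0.085 with the mean of its probe sets and ranged from −0.088 to 0.011 with 1 experiment left out. The cause was not tested. Signal over background is unknown, which limits what the dimmest members show.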
